A study of Rattus norvegicus with 8 samples.

Results

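Cytosolic ribosomal protein genes encode the protein parts of the ribosome that translates messenger RNA in the cytoplasm. They were taken here as the gene symbols made of Rpl (large subunit) or Rps (small subunit), a number and an optional a, x or l suffix, and 74 of the 16764 symbols in the count table matched. Of these, 46 belong to the large subunit and 28 to the small one. A further 10 ribosomal proteins with other kinds of name, such as Rplp0 and Rpsa, were listed separately. The rule reads names and no measured values, though it was set with earlier results of these data known.

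Ribosomal proteins are needed in nearly fixed proportions, 1 copy of most of them per ribosome, and their messenger RNAs are among the most abundant of dividing cells. Many of these messengers begin with a C followed by a run of pyrimidines, the terminal oligopyrimidine (TOP) motif, through which the mTORC1 kinase and the protein Larp1 control their translation. In the testis, X-linked genes are silenced in spermatocytes during meiosis, and some ribosomal proteins have autosomal paralogs with high expression there, Rpl39l among them.

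RNA was sequenced from 3 kinds of Brown Norway rat germ cells, with 2 libraries each. Undifferentiated spermatogonia (USg) were a spermatogonial line grown in SG medium. Differentiating spermatogonia (DSg) were the same line after 7 days on laminin, 5 of them (120 h) in SD medium, a medium supplemented with neuregulin-1 and all-trans retinoic acid. Spermatocyte-enriched cells (Spc) were primary testis germ cells, recovered once the cells that stick to plastic, to collagen-I or to laminin had been removed, and then held for 2.5 days in DMEM:Ham's F12 with 10% serum. DSg therefore differed from USg in medium, laminin and time together, and Spc differed from both in source, selection and culture as well as stage, so these cannot be told apart. The labels speak of replicate cultures for the line and do not say how the replicates of Spc were separated, so p-values measure the spread between these libraries. The protocol places USg RNA at day 0 whereas the sample titles carry T120 for USg and DSg alike, so it is not settled here whether the 2 groups were matched for time. The 2 anti-Foxa2 chromatin immunoprecipitation samples of the series were not analysed here.

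The sequence around the annotated transcription start is shown for the members that passed the test in some comparison, since this is where a TOP motif would lie. RefSeq promoters of build GRCr8 were matched for 59 of the 74 members, and Rpl23a and Rps25 were not among them. Only the first listed promoter of each gene was used, 27457 of 33469, so other annotated starts are not shown or counted. Each window runs 5′ to 3′ on the gene's strand, with 15 bases before the annotated start and 15 from it on, and capitals mark its longest run of C and T. Rpl10 lies at chrX:157205835-157205864 on the plus strand, Rpl11 at chr5:153560788-153560817 on the minus strand and Rpl17 at chr18:70856261-70856290 on the plus strand. Rpl35 lies at chr3:43165907-43165936 and Rpl3 at chr7:113507976-113508005, both on the minus strand. Rps23 lies at chr2:23814502-23814531 and Rps24 at chr16:96502-96531, both on the plus strand. Chromosome 10 holds both paralogs shown, Rpl39l at chr10:5966607-5966636 on the minus strand (Rpl39l1 in GRCr8) and Rpl3l at chr10:14258431-14258460 on the plus strand.
Rpl10: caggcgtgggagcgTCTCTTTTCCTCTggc
Rpl17: tagccttcgcgCTTCCTCTTCCTgttagcg
Rpl35: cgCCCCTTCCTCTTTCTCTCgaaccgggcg
Rps24: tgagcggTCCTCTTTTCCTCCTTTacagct
Rps23: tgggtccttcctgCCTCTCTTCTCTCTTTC
Rpl3: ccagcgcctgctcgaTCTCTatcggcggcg
Rpl11: ggggaCTTgaagcttgtttggtgctgggga
Rpl39l: actgccaggccgTCCCgctatcctggtgtg
Rpl3l: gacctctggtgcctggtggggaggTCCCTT
In the first 3 windows, those of Rpl10, Rpl17 and Rpl35, the annotated start is a C followed by pyrimidines, at least 5 in all, the TOP-like rule used here. Rps24 and Rps23 have long pyrimidine runs with a T at the annotated start. The windows of Rpl3, Rpl11 and the paralogs Rpl39l and Rpl3l hold only short runs. By this rule 22 of the 59 promoters were TOP-like (37.3%), against 2.63% of all 27457 promoters in the table. A run of at least 10 pyrimidines within the 30-base window was present in 31 members (52.5%), against 4.97% of all promoters. From 250 bases before to 50 after the start, on either strand, the ETS-type motif CCGGAAG was found in 19 members (32.2%, against 9.22% of all), the Sp1-type motif GGGCGG in 32 (54.2%, against 34.9%), the YY1-type motif AAGATGGC in 5 (8.47%, against 3.44%) and TATAAA in 6 (10.2%, against 14.3%). None of these 4 motifs contains another. A match describes the letters and not a binding site.

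Total counts per library were between 2657291 and 5697165, so that 1 count stood for a larger share in USg 1, DSg 1 and DSg 2, the 3 shallow libraries. Ribosomal RNA genes took 7.81% of the counts in USg 1 and 12.4% in DSg 1, against 0.00377% to 0.734% in the other 4 libraries. In DSg 2, 96.7% of 1044 olfactory receptor genes had a count, against 23.4% to 64.1% in the other 5 libraries. The summed level of markers was highest in the labelled stage. That of undifferentiated spermatogonial markers was 1968 and 2313 CPM (counts scaled to a common library size) in USg, 376 and 383 in DSg and 220 and 202 in Spc. For differentiating spermatogonial markers it was 446 and 554 in USg, 1152 and 1247 in DSg and 347 and 386 in Spc. For spermatocyte markers it was 1573 and 1073 in USg, 1776 and 1072 in DSg and 11533 and 12083 in Spc. Of the differentiating list, Kit had 597 and 562 CPM in DSg. Sohlh1 and Ccnd2 had their highest mean in USg (95.1 and 109 CPM), and Dmrtb1 and Rec8 in Spc (13.7 and 37.3). Of the spermatocyte list, Hormad2 had its highest mean in USg (81.6 CPM) and Ccna1 in DSg (12.3). Of the undifferentiated list, Id4 went against its sum, with 49.0 and 47.4 CPM in USg, 19.8 and 13.2 in DSg and 140 and 118 in Spc, where it is most of the sum. Sertoli, Leydig, peritubular and blood cell markers were also highest in Spc, as given beside the results for Spc. Of the 11 spermatid markers measured, Prm2 was at 0 in USg and Spc and Tnp2 at 0 in USg, and their sum was 54.4 and 63.2 CPM in USg, 59.8 and 40.9 in DSg and 16.8 and 17.2 in Spc.

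The 74 members together took 1.06% of all counts in USg 1 and 1.88% in USg 2, 0.735% in DSg 1 and 0.879% in DSg 2, and 1.37% in Spc 1 and 1.32% in Spc 2. Both DSg libraries were the lowest, both Spc libraries lay between the USg libraries, and the USg libraries were far apart. Means were 1.47% ± 0.580 in USg, 0.807% ± 0.102 in DSg and 1.34% ± 0.0290 in Spc (SD, n = 2 each). The difference was −0.664 percentage points for DSg minus USg, −0.126 for Spc minus USg and 0.538 for Spc minus DSg, with exact two-sided permutation p of 0.333, 1 and 0.333. With 2 libraries a group the smallest possible p is 0.333, so none of these could pass 0.05. Leaving out USg 1 moved the DSg minus USg difference to −1.07 and leaving out USg 2 moved it to −0.254, and Spc minus USg was −0.536 without USg 1 and 0.284 without USg 2. With ribosomal RNA genes taken out of the totals the shares were 1.15% and 1.88% in USg, 0.839% and 0.879% in DSg and 1.37% and 1.33% in Spc. In bulk RNA, fewer cells of a type and less RNA per cell cannot be told apart.

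**Figure D1:**
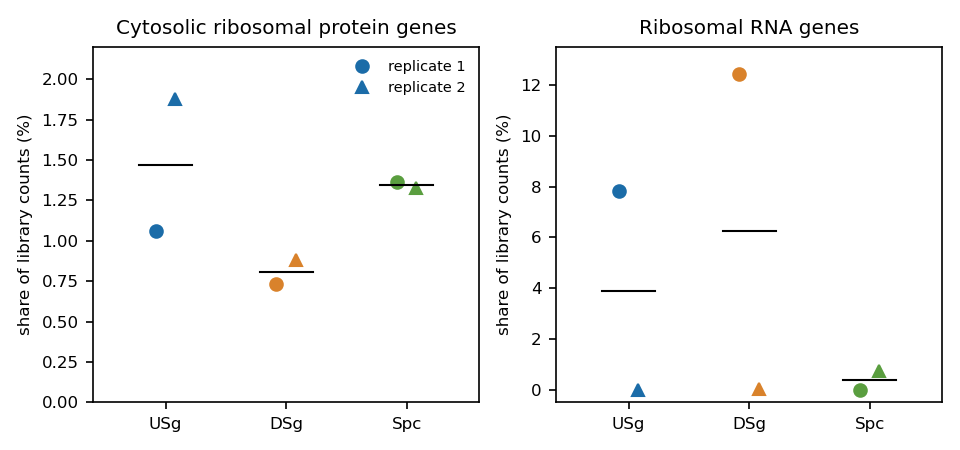
Share of all counts (%) in each library taken by the 74 ribosomal protein genes (left) and by 5 ribosomal RNA genes (right) in USg, DSg and Spc; circles are replicate 1, triangles replicate 2 and lines group means. The ribosomal protein share was lowest in DSg (0.735% and 0.879%) and split USg (1.06% and 1.88%), while the ribosomal RNA share was 7.81% in USg 1 and 12.4% in DSg 1.

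Large subunit genes held 74.5% to 77.6% of the members' counts in every library. The 10 genes with the highest mean CPM over the 6 libraries (among them Rpl23, Rpl4, Rps24, Rpl37a, Rpl11, Rpl39l, Rpl35, Rps29 and Rpl3) held 53.8% to 67.0% of them. These are shares of reads and not of molecules, since no transcript lengths were used. Rpl37a, a zinc-binding large subunit protein, had 623 and 1124 CPM in USg, 537 and 547 in DSg and 909 and 1109 in Spc, and DSg was lowest. Of the 74 members, 62 passed the filter on low counts (37 large and 25 small subunit). It asked for about 2.53 CPM in at least 2 libraries, 53 members were past that in all 6 libraries, and 0 passed through the libraries of 1 group alone.

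The other 12 members were nearly empty in every group. They are Rpl7a, Rpl8, Rpl26, Rpl35a, Rpl36, Rpl36a, Rpl37, Rpl38, Rpl39, Rps4x, Rps27a and Rps28, most of them core proteins of the ribosome. Rpl8, which lies at the peptidyl transferase centre, had 0 and 0 counts in USg, 1 and 2 in DSg and 0 and 0 in Spc. Rpl7a had 2 and 1 counts in USg, 0 and 3 in DSg and 0 and 0 in Spc. Rps27a, made as a fusion with ubiquitin, had 13 and 9 counts in USg, 2 and 6 in DSg and 9 and 5 in Spc. The highest count of any of the 12 was 14, for Rpl36 in USg 2. Rat genome build GRCr8 holds 786 pseudogenes and 212 coding genes named as copies of a member, and 71 members had at least 1. The median number of copies was 14 for the 12 nearly empty members (6 to 29) and 14 for the 62 tested (0 to 36). How reads that match several copies were counted is not given in the sources used here, so every member's level is uncertain to that extent, and the part of copies in these low counts was not tested.

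Replicates of the line lay far apart for many ribosomal protein genes. As the log2 difference of replicate 1 minus replicate 2 on log2(CPM + 0.5), where CPM is scaled by the trimmed mean of M-values (TMM), the members had an SD of 1.31 in USg, 0.97 in DSg and 0.54 in Spc, against 0.95, 0.95 and 0.43 over all genes tested. The replicates lay within 2-fold of each other for 32 of 62 members in USg (51.6%, against 72.8% of all genes), 41 in DSg (66.1%, against 77.1%) and 58 in Spc (93.5%, against 96.6%). The disagreement in USg ran both ways, since 19 members were at least 2-fold higher in USg 2 and 11 at least 2-fold higher in USg 1.

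Rps10, a small subunit protein near the mRNA entry, had 127 and 9.97 CPM in USg 1 and 2, 38.0 and 7.27 in DSg 1 and 2, and 6.90 and 11.1 in Spc 1 and 2. Rps29, a zinc-binding protein of the small subunit head, had 163 and 1565 CPM in USg, 102 and 153 in DSg and 310 and 220 in Spc. Rps15, which takes part in export of the small subunit, had 45.5 and 346 CPM in USg, 44.8 and 66.0 in DSg and 225 and 107 in Spc. Rps10 was thus high in USg 1 (a log2 difference of 3.61) and Rps29 and Rps15 in USg 2 (−3.26 and −2.91). In DSg the widest gaps were those of Rps2 (46.5 and 7.27 CPM), Rps10 and Rps16 (121 and 27.2 CPM), all higher in DSg 1. In Spc, Rps16 (97.2 and 37.7 CPM), Rps15 and Rps27 (5.32 and 11.8 CPM) were the widest, with differences of 1.36, 1.07 and −1.07.

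Many members were higher in the same-numbered library of USg and of DSg. Of the 11 members at least 2-fold higher in USg 1, 9 were higher in DSg 1 and 2 in DSg 2, with a median DSg difference of 1.57. Of the 19 members at least 2-fold higher in USg 2, 4 were higher in DSg 1 and 15 in DSg 2, with a median of −0.16. Of the remaining 32, 24 were higher in DSg 1 and 8 in DSg 2. In Spc the median differences of the first 2 sets were −0.15 and 0.14. Subunits were unevenly placed, with 4 large and 7 small subunit genes among the 11 and 14 large and 5 small among the 19. USg 1 and DSg 1 are also the libraries with most ribosomal RNA counts, and the part of that in these gaps was not tested.

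**Figure D2:**
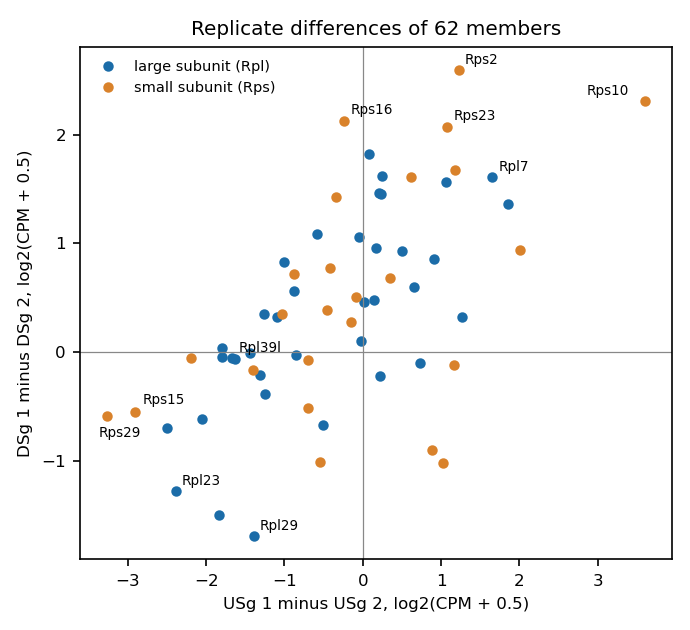
Log2 difference between replicates, replicate 1 minus replicate 2 on log2(CPM + 0.5), in USg (horizontal) and in DSg (vertical) for the 62 tested members, each point 1 gene coloured by subunit. Rps10 lies at 3.61 in USg and 2.31 in DSg, Rps29 at −3.26 and −0.59, and the members spread along a rising diagonal.

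DSg were compared with USg to see what 120 h of differentiation medium goes with. No ribosomal protein gene passed the test, while 53 of the 62 had a log2 fold change below 0 and 9 above it (6 passed as lower with the replicate block and 18 of 74 with no filter). The median was −0.82 (quartiles −1.37 and −0.29), against 0.01 over all genes tested (quartiles −0.51 and 0.55). It was −0.98 for the large subunit and −0.42 for the small subunit. When the members' own sum served as library size, which takes out their common shift by construction, the median of all 62 was 0.12. Differences of at least 2-fold numbered 25 lower and 1 higher of 62, against 11.7% and 12.9% of all genes. By edgeR's quasi-likelihood test with Benjamini-Hochberg adjustment, 0 members were higher and 0 lower, against 0.565% and 1.92% of all genes. At an unadjusted p under 0.05 the counts were 0 higher and 22 lower of 62, against 8.26% and 10.9% of all genes, and by DESeq2 0 and 10, against 1.96% and 4.44%. With the replicate block 3.57% and with no filter 5.10% of all genes were lower. Both DSg libraries lay below both USg libraries for 26 members (41.9%, against 21.1% of all genes) and above them for 1 (1.61%, against 21.2%).

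Rpl10, an X-linked protein that joins the large subunit late in its assembly, had 19.8 and 14.3 CPM in DSg, against 46.7 and 46.3 in USg. Its libraries did not overlap and its replicates were close in USg, and with a log2 fold change of −1.45 ± 0.34 (SE) it had the smallest edgeR adjusted p of the members, 0.0669. It passed with no filter (0.0203), by DESeq2 (0.0276), with the replicate block (0.0431), without USg 1 (0.0249) and without USg 1 and DSg 1 (1.39e-04). Rpl35, a large subunit protein, had 321 and 217 CPM in DSg, against 526 and 966 in USg. Its difference was −1.47 ± 0.39 (edgeR adjusted p = 0.0889). Rpl39l had 223 and 231 CPM in DSg, against 392 and 1245 in USg, a difference of −1.85 ± 0.49 (edgeR adjusted p = 0.0896). Without USg 2 the difference of Rpl39l was −0.84, and it passed under 7 alternatives, among them DESeq2 (0.00354), the replicate block (0.0368) and leaving out USg 1 (0.00133, at −2.59). Both were below USg in each library, with a wide gap between the USg replicates. The largest negative value was that of Rps29, −2.76 ± 0.83, with means of 128 ± 36.5 CPM in DSg and 864 ± 991 in USg (SD, n = 2 each), a mean that rests on USg 2. Rpl4, a protein of the exit tunnel of the nascent protein, averaged 1044 ± 52.6 CPM in DSg and 1033 ± 361 in USg. Its log2 fold change was 0.02 ± 0.34.

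How many members and how many other genes pass here depended on the libraries. Left out in turn, USg 1, Spc 1 and Spc 2 gave 21, 6 and 5 lower members (against 8.42%, 3.05% and 2.84% of all genes), and 37 were lower without both USg 1 and DSg 1 (against 23.8%), with a spread taken from Spc alone. Leaving out USg 2 gave 0 (against 1.97%), and leaving out DSg 1 or DSg 2 gave 0 lower among all genes too. The median was −1.34 without DSg 1 and −0.54 without USg 2.

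**Figure D3:**
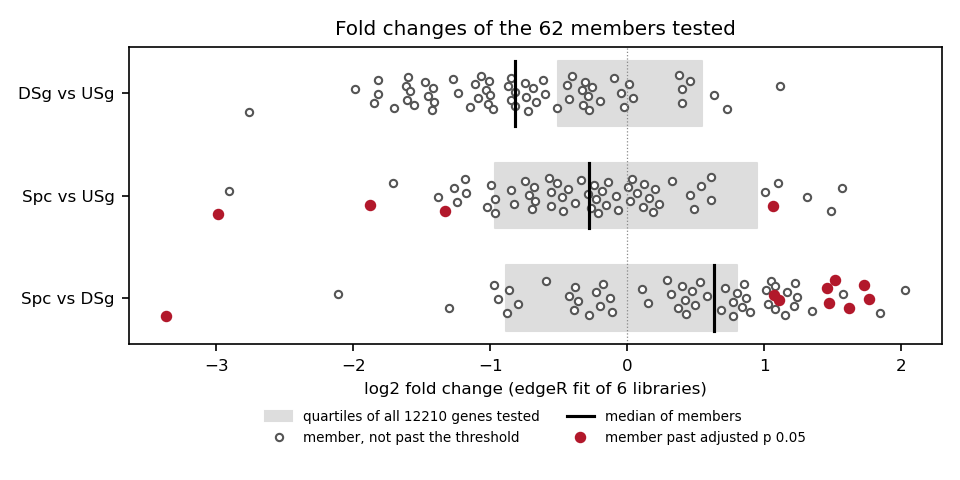
Log2 fold changes of the 62 tested members in the 3 comparisons, from 1 edgeR fit of 6 libraries; each circle is 1 gene, filled red where the adjusted p is under 0.05, the thick bar is the members' median and the grey box spans the quartiles of all genes tested. The median was −0.82 for DSg vs USg, −0.27 for Spc vs USg and 0.63 for Spc vs DSg (0.12, −0.18 and −0.27 with the members' own sum as library size), and the gene at −3.37 in the lowest row is Rpl3l.

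Between Spc and DSg, 8 members rose and 1 fell in Spc by the edgeR test (12.9% and 1.61% of the 62), against 14.8% and 11.7% of all genes, so the share that rose is close to the background and the share that fell is below it. Of the 62, 43 had a log2 fold change above 0 and 19 below. The median was 0.63 (quartiles −0.19 and 1.10), against −0.03 over all genes (quartiles −0.89 and 0.81). It was 0.78 in the large subunit and 0.49 in the small subunit. With the members' own sum as library size, which takes out their common shift by construction, the median was −0.27. There, 0 rose and 4 fell, against 6.24% and 29.9% of all genes. Both Spc libraries lay above both DSg libraries for 34 members (54.8%, against 36.6% of all genes) and below them for 4 (6.45%, against 34.6%).

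Among the large subunit genes that rose, Rpl11, which with Rpl5 and 5S RNA forms a particle that also binds the p53 regulator Mdm2, had 988 and 1044 CPM in Spc, against 366 and 341 in DSg and 693 and 706 in USg. Its replicates were close in every group, and its fold change for Spc vs DSg was 1.52 ± 0.28 (edgeR adjusted p = 0.0055). Rpl23a, a docking point for factors at the tunnel exit, had 284 and 282 CPM in Spc, against 95.8 and 74.9 in DSg (1.73 ± 0.42, edgeR adjusted p = 0.0172). Rpl35 had 854 and 644 CPM in Spc, against 321 and 217 in DSg (1.48 ± 0.39, edgeR adjusted p = 0.023). Its mean in Spc, 749 ± 148 CPM, was close to that in USg, 746 ± 311. Rpl17, at the rim of the tunnel exit, had 199 and 99.9 CPM in Spc, against 73.9 and 35.3 in DSg (1.46 ± 0.45, edgeR adjusted p = 0.0425). Rpl10 had 35.7 and 35.7 CPM in Spc, against 19.8 and 14.3 in DSg (1.07 ± 0.34, edgeR adjusted p = 0.0473). Rpl39l had 806 and 740 CPM in Spc, against 223 and 231 in DSg (1.77 ± 0.49, edgeR adjusted p = 0.0279). In all 6 of these genes the DSg libraries lay below those of Spc and of USg.

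In the small subunit, Rps24, which is needed for maturation of 18S ribosomal RNA, had 1279 and 1436 CPM in Spc, against 518 and 739 in DSg (1.11 ± 0.35, edgeR adjusted p = 0.0467). Rps25, known for its part in initiation at internal ribosome entry sites, had 24.6 and 46.8 CPM in Spc, against 14.5 and 8.89 in DSg (1.62 ± 0.46, edgeR adjusted p = 0.0315). In these 2 genes DSg overlapped with USg, and both were highest in Spc. Rpl23, a Mdm2-binding large subunit protein, had the largest positive fold change, 2.03 ± 0.70, without passing the test (edgeR adjusted p = 0.0627), at 1638 and 1856 CPM in Spc, against 248 and 606 in DSg. The 1 member that fell was Rpl3l, described with the paralogs.

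Of the somatic markers, the 13 Sertoli genes summed to 2456 and 2286 CPM in Spc, against 376 to 664 in the line, the 11 peritubular and fibroblast genes to 2971 and 2832, against 289 to 565, the 8 Leydig genes to 182 and 187, against 5.40 to 28.3, and the 11 macrophage and blood genes to 75.9 and 92.5, against 14.9 to 49.5. The 7 endothelial genes summed to 38.6 and 50.3 CPM in Spc, against 64.6 to 213 in the line. A mean of at least 5 CPM in Spc was reached by 10 of the 13 Sertoli genes but 2 of the 8 Leydig genes. It was reached by 10 of the 11 peritubular and fibroblast, 6 of the 11 macrophage and blood and 5 of the 7 endothelial genes. In USg, Insl3 of the Leydig list and Hbb of the blood list were at 0. The part of such cells in the ribosomal protein levels of Spc was not tested.

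The number that rose was 2 without DSg 2, 5 without DSg 1, 21 without USg 1, 21 without USg 2, and 37 without USg 1 and DSg 1 together, against 9.40%, 9.20%, 17.9%, 18.9% and 29.3% of all genes in the same fits, and the median was 0.41 without DSg 2 and 0.95 without DSg 1. Each of the 8 calls was lost (edgeR adjusted p in parentheses) when 1 library or more was left out: Rpl11 without Spc 2 (0.0569), Rpl23a and Rpl39l without DSg 1 (0.0621 and 0.109) or DSg 2 (0.117 and 0.134), Rpl35 without DSg 1, DSg 2 or Spc 1 (0.0513, 0.137 and 0.134), Rpl17 without DSg 2 (0.203) or Spc 1 (0.424, with a fold of 0.92, against 2.26 without DSg 1), Rps25 without DSg 1, DSg 2 or Spc 2 (0.0516, 0.159 and 0.33), and Rpl10 and Rps24 without any 1 of DSg 1, DSg 2, Spc 1 and Spc 2 (0.0518 to 0.3 and 0.0788 to 0.234). Those of Rpl10 and Rps24 were lost with upper quartile (0.0801 and 0.0991) and total-count scaling (0.0778 and 0.127) too. That of Rpl10 was lost with no filter (0.0514) and by DESeq2 (0.0602), and that of Rps24 with the filter of 5 CPM (0.0527). All 8 were lost with the members' sum as library size (0.136 to 0.792), which takes out their common shift by construction.

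**Figure D4:**
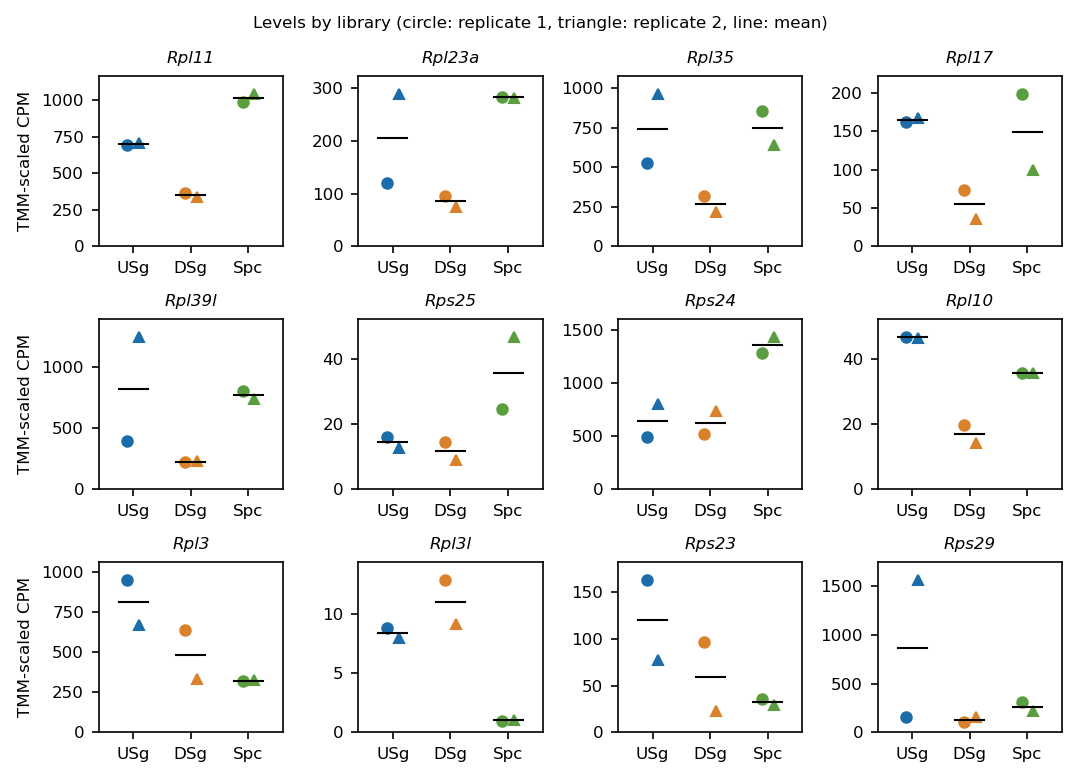
Level (TMM-scaled CPM) of 12 ribosomal protein genes in each library of USg, DSg and Spc; circles are replicate 1, triangles replicate 2 and lines group means, and every vertical axis starts at 0 with its own scale. Rpl11 was lowest in DSg (366 and 341 CPM) with close replicates, Rpl3l was near 1 CPM in Spc, and Rps29 shows the gap between USg libraries (163 and 1565 CPM).

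Compared with USg, Spc had few ribosomal protein genes that passed: 1 rose and 3 fell by the edgeR test (1.61% and 4.84% of the 62), against 17.9% and 16.6% of all genes. Of the 62, 22 had a log2 fold change above 0 and 40 below it, and the median was −0.27 (quartiles −0.80 and 0.15), against −0.04 over all genes (quartiles −0.96 and 0.95). It was −0.38 in the large subunit and −0.23 in the small subunit. Both Spc libraries lay above both USg libraries for 8 members (12.9%, against 37.1% of all genes) and below for 15 (24.2%, against 35.3%).

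Rps24 rose, with 1279 and 1436 CPM in Spc, against 494 and 802 in USg (1.07 ± 0.35, edgeR adjusted p = 0.0443). Rpl3, an early assembly protein of the large subunit that reaches its catalytic centre, fell, with 318 and 325 CPM in Spc, against 950 and 669 in USg (−1.33 ± 0.37, edgeR adjusted p = 0.0242). DSg had 636 and 334 CPM of it. Rps23, which lies at the decoding centre, fell, with 35.3 and 29.8 CPM in Spc, against 163 and 76.9 in USg (−1.88 ± 0.63, edgeR adjusted p = 0.0479). In both genes the Spc replicates were close and lay below those of USg. Rps10 had a larger value, −2.91 ± 1.09, that did not pass (edgeR adjusted p = 0.0674), with 127 and 9.97 CPM in its USg replicates.

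Without USg 1 the median of the members was −0.38, against 0.04 over all genes. Without both USg 1 and DSg 1 it was −0.37, against 0.05. The median was 0.037 without USg 2 and −0.47 without Spc 1, and single calls were lost for Rps24 without any 1 library other than USg 2 (edgeR adjusted p 0.0519 to 0.271), under total-count (0.076) or upper quartile scaling (0.0579), with no filter (0.066), with the members' sum as library size (0.101) and in the fit of 4 libraries (0.0529), for Rpl3 without USg 1, Spc 1 or Spc 2 (0.0721, 0.148 and 0.15) and with the members' sum as library size (0.0702), and for Rps23 without USg 1 (0.147) or Spc 2 (0.075).

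**Figure D5:**
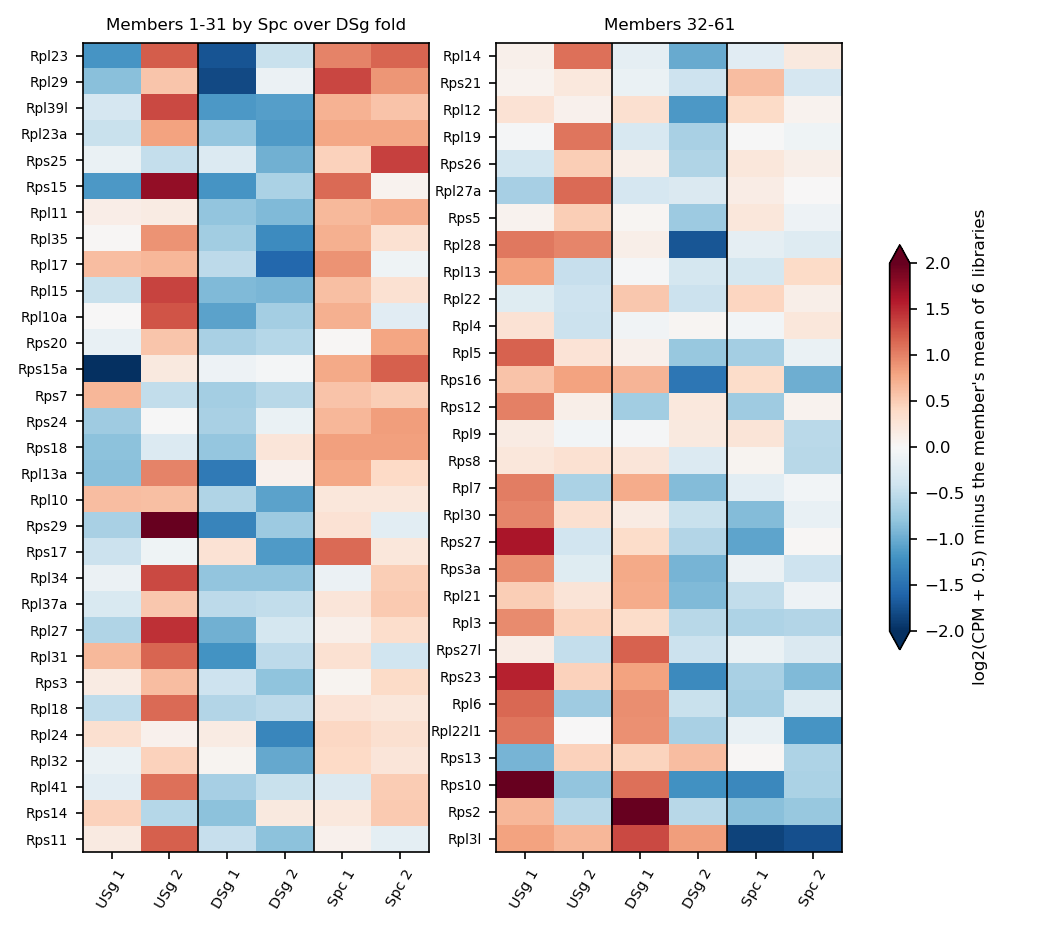
Level of 61 of the 62 tested members in each library, as log2(CPM + 0.5) minus the member's mean over the 6 libraries (colour, red high and blue low, ends of the scale at −2 and 2), ordered by the Spc over DSg fold from Rpl23 (2.03) at top left to Rpl3l (−3.37) at bottom right. Many rows are blue in both DSg columns, and USg 1 and USg 2 differ in colour for many genes.

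Of the 4 members that are paralogs of another member, Rpl3l changed most. It is known as the form of Rpl3 found in heart and skeletal muscle. It had 8.87 and 8.01 CPM in USg, 12.9 and 9.16 in DSg and 0.985 and 1.09 in Spc, from 23, 45, 32, 34, 5 and 5 counts. It fell in Spc by 2.99 ± 0.61 on the log2 scale against USg and by 3.37 ± 0.61 against DSg (edgeR adjusted p = 0.00601 and 0.00505), and both calls held under every alternative tried. Its share of the counts of Rpl3l and Rpl3 together was 0.926% and 1.18% in USg (95% exact Clopper-Pearson intervals 0.588% to 1.39% and 0.864% to 1.58%), 1.99% and 2.67% in DSg (1.37% to 2.80% and 1.86% to 3.71%) and 0.309% and 0.334% in Spc (0.100% to 0.719% and 0.108% to 0.777%). The 3 groups did not overlap, and Rpl3l stayed a small part of the pair. The intervals cover counting error only.

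Rpl22l1 and its parent Rpl22, RNA-binding proteins that are known to regulate each other, passed no test. Rpl22l1 had 15.4 and 7.12 CPM in USg, 13.7 and 4.31 in DSg and 6.31 and 2.83 in Spc, while Rpl22 had 99.6 and 88.1, 171 and 87.8, and 159 and 128 CPM in the same order. The share of Rpl22l1 in their counts was 13.4% and 7.48% in USg, 7.42% and 4.68% in DSg and 3.80% and 2.17% in Spc. Each group lay wholly below the one before, though the gap between USg 2 and DSg 1 was within their counting intervals (5.39% to 10.0% and 5.2% to 10.2%). The gap between DSg 2 and Spc 1 was also within theirs (2.70% to 7.49% and 2.62% to 5.33%).

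Rps27l, a p53-regulated form of the zinc-binding protein Rps27, took most of its pair's counts in every library, 67.0% and 84.7% in USg, 91.1% and 86.9% in DSg and 92.1% and 82.4% in Spc, and the groups overlapped between USg and Spc and between DSg and Spc. Rps27l itself had 74.5 and 48.3 CPM in USg, 154 and 49.8 in DSg and 61.7 and 55.1 in Spc, with DSg 1 high.

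Rpl39l, whose loss in mice impairs sperm formation, took 99.3% to 100% of its pair's counts in all 6 libraries, those of the line included. Its X-linked parent Rpl39 had 2 and 4 counts in USg, 4 and 4 in DSg and 0 and 4 in Spc. Rpl39 and Rpl39l are near-identical, so reads could have been assigned to either or to neither, and the split between them is uncertain.

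The 4 X-linked members were Rpl10, Rpl36a, Rpl39 and Rps4x. Rpl10 averaged 35.7 ± 0.0240 CPM in Spc and 46.5 ± 0.279 CPM in USg (SD, n = 2 each), and Spc vs USg gave −0.38 ± 0.33 (edgeR adjusted p = 0.395). The other 3 did not pass the filter. Rpl36a had 2 and 8 counts in USg, 1 and 3 in DSg and 4 and 5 in Spc. Rps4x had 0 and 2 counts in USg, 2 and 3 in DSg and 11 and 12 in Spc, which makes 23 counts in Spc against 2 in USg and a depth-corrected ratio of 9.76 (95% counting interval 2.41 to 85.4). Its relative Rps4y2, outside the symbol pattern, had 106 and 74.5 CPM in Spc, against 179 and 359 in USg. That is a fall of 1.58 ± 0.40 on the log2 scale (edgeR adjusted p = 0.0161), lost without USg 2 (0.0896) or Spc 2 (0.166). Reads may be divided between these relatives too.

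Other ribosomal proteins outside the pattern had medians of the same signs as the members. Of 10 listed, 7 were tested, with median log2 fold changes of −1.37 for DSg vs USg, −0.71 for Spc vs USg and 0.41 for Spc vs DSg. Of these 7, 0 passed by edgeR in DSg vs USg and 0 in Spc vs DSg. In DSg vs USg, 3 were lower at an unadjusted p under 0.05 (against 10.9% of all genes) and 3 by DESeq2 (against 4.44%). In Spc vs DSg both counts were 0 (against 20.5% higher and 19.3% lower unadjusted, and 15.9% and 13.0% by DESeq2). In Spc vs USg 2 fell (against 16.6% of all genes), Rps4y2 and Gnb2l1, the small subunit scaffold also called Rack1. Gnb2l1 changed by −1.20 ± 0.34 (edgeR adjusted p = 0.0242). Its call was lost without USg 2, Spc 1 or Spc 2, at folds of −0.84, −1.11 and −1.29. Rplp0, the stalk protein of the large subunit, had 780 and 1721 CPM in USg, 522 and 448 in DSg and 725 and 560 in Spc.

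Other messengers with a known TOP motif, mainly translation factors, had medians of −0.59 for DSg vs USg, −0.37 for Spc vs USg and 0.44 for Spc vs DSg over 21 tested genes. Of these, 0 passed by edgeR in DSg vs USg. There, 6 were lower at an unadjusted p under 0.05, against 10.9% of all genes, and 0 by DESeq2, against 4.44%. In Spc vs USg 1 fell (against 16.6% of all genes) and in Spc vs DSg 1 rose (against 14.8%). The elongation factor subunit Eef1g had 310 and 338 CPM in Spc, against 167 and 159 in DSg (0.99 ± 0.29, edgeR adjusted p = 0.0335, 0.061 with upper quartile scaling, 0.0663 by total counts, and between 0.069 and 0.322 when any 1 library of Spc or DSg was left out). The RNA-binding protein Hnrnpa1 had 31.7 and 23.7 CPM in Spc, against 98.8 and 60.2 in USg (−1.51 ± 0.41, edgeR adjusted p = 0.0203, lost without USg 1, Spc 1 or Spc 2 at 0.0606, 0.075 and 0.205).

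Of 56 tested ribosome biogenesis genes, 2 rose and 19 fell in Spc vs USg (median −0.57), against 17.9% and 16.6% of all genes. In Spc vs DSg 2 rose and 12 fell (median −0.34), against 14.8% and 11.7%. In DSg vs USg 0 passed by edgeR (median −0.27). There, 1 was higher and 4 lower at an unadjusted p under 0.05, against 8.26% and 10.9% of all genes. By DESeq2 the counts were 0 and 1, against 1.96% and 4.44%. Fbl, the methyltransferase fibrillarin of box C/D particles, had 44.2 and 57.5 CPM in Spc, against 431 and 193 in USg (−2.61 ± 0.50, edgeR adjusted p = 0.00432). Gar1, a component of box H/ACA particles, had 16.4 and 18.1 CPM in Spc, against 122 and 76.9 in USg (−2.52 ± 0.42, edgeR adjusted p = 0.00236). Nol10 and Nop14, processing factors of the small subunit, fell by 2.04 ± 0.33 and 1.82 ± 0.34 against USg (edgeR adjusted p = 0.00199 and 0.00407) and by 1.95 ± 0.33 and 1.96 ± 0.34 against DSg (0.00359 and 0.00423). Sbds, which frees the large subunit of its last assembly factor, went the other way, with 71.0 and 78.4 CPM in Spc, against 23.8 and 20.5 in DSg (1.75 ± 0.33, edgeR adjusted p = 0.00598). Gar1 also fell against DSg (−2.14 ± 0.42, edgeR adjusted p = 0.00677), a call lost without DSg 1 (0.0558), as that of Nop14 against USg was without Spc 2 (0.0519).

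RNA polymerase I transcribes ribosomal RNA. Of 13 tested genes of this polymerase and its factors, 2 rose and 4 fell in Spc vs USg (median −0.49), against 17.9% and 16.6% of all genes. In Spc vs DSg 2 rose and 2 fell (median −0.53), against 14.8% and 11.7%. In DSg vs USg 0 passed by edgeR (median −0.03). There, 1 was lower at an unadjusted p under 0.05, against 10.9% of all genes, and 0 by DESeq2, against 4.44%. Its second largest subunit Polr1b had 36.3 and 38.1 CPM in Spc, against 207 and 179 in USg and 205 and 198 in DSg (−2.37 ± 0.30 and −2.44 ± 0.30, edgeR adjusted p = 6.48e-04 and 8.57e-04). Ubtf, a promoter factor of this polymerase, fell by 1.70 ± 0.33 against USg and by 1.36 ± 0.32 against DSg (edgeR adjusted p = 0.00444 and 0.0156). The initiation complex subunits Taf1d and Taf1b rose by 1.63 ± 0.31 and 1.91 ± 0.36 against USg (edgeR adjusted p = 0.00402 and 0.00435) and by 1.66 ± 0.31 and 1.29 ± 0.36 against DSg (0.00532 and 0.0278). Without Spc 1 or Spc 2 some of these calls were lost: Ubtf against USg without Spc 1 (0.058) and against DSg without Spc 1, Spc 2 or DSg 1 (0.228, 0.172 and 0.0987), Taf1d without Spc 2 (0.058 against USg and 0.0552 against DSg), and Taf1b against DSg without DSg 2, Spc 1 or Spc 2 (0.129, 0.144 and 0.2).

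Among 18 tested regulators of ribosomal protein synthesis, Myc and Mycn, whose products activate ribosome genes, moved in opposite directions in Spc vs USg, and the third MYC family gene tested, Mycl, did not pass (0.19 ± 0.75, edgeR adjusted p = 0.859). Mycn had 37.4 and 41.1 CPM in USg, 6.06 and 6.19 in DSg and 7.29 and 3.05 in Spc. It fell in DSg vs USg by 2.67 ± 0.49 (edgeR adjusted p = 0.0305, 0.0589 with total-count scaling and 0.0782 with the members' sum as library size) and in Spc vs USg by 2.91 ± 0.48 (0.0022). Without DSg 1 or DSg 2, where no gene passed, its fold was −2.85 or −2.69 (0.12 and 0.215). Mycn was the only regulator of the 18 that passed in DSg vs USg, where 1.92% of all genes were lower. Myc had 2.70 and 4.10 CPM in USg, 4.04 and 7.0 in DSg and 48.7 and 36.4 in Spc, and rose in Spc by 3.59 ± 0.47 against USg and by 2.91 ± 0.46 against DSg (edgeR adjusted p = 8.25e-04 and 0.00262). Of the other regulators, Akt1, a kinase upstream of mTORC1, fell in Spc against USg (−1.37 ± 0.30, edgeR adjusted p = 0.00764) and against DSg (−1.72 ± 0.30, 0.00415), and Eif4ebp2, a translation repressor that mTORC1 inactivates, fell against USg (−1.25 ± 0.33, 0.0178). Akt1 lost both calls without Spc 1 (0.22 and 0.15) or Spc 2 (0.101 and 0.0546), and Eif4ebp2 lost its own without USg 2, Spc 1 or Spc 2 (0.0811, 0.17 and 0.275). The counts were 1 higher and 4 lower of 18 in Spc vs USg (against 17.9% and 16.6% of all genes) and 1 and 1 in Spc vs DSg (against 14.8% and 11.7%), with medians of −0.02 in DSg vs USg, 0.06 in Spc vs USg and −0.09 in Spc vs DSg. Spc held somatic cell markers at the levels given above, and their part in these list counts was not tested.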

How the data were processed

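RNA of 6 libraries (2 each of USg, DSg and Spc) was analysed. The deposited values are raw counts, 1 whole number per gene symbol and library, which were not normalized, as the totals show. Per the submitters' processing notes, STAR 2.5.3a, featureCounts, Subread 1.4.6 and edgeR 3.2.4 were among the tools and rn6 and rn5 the builds. Their roles, the annotation, the strand setting and the treatment of reads with several matches are not stated in the labels or headers. The members and gene lists were chosen with earlier results of these data known.

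Counts were filtered (filterByExpr of edgeR, minimum count 10, minimum total 15, 12210 kept), scaled by TMM and fitted together, with 3 residual degrees of freedom, by the quasi-likelihood method in edgeR 4.0.16 (R 4.3.3, limma 3.58.1). Tests were two-sided, with Benjamini-Hochberg adjustment over the 12210 genes and a threshold of 0.05. Each SE is the size of the log2 fold change divided by the root of its F statistic. Levels are TMM-scaled CPM. The fit was tested on simulated data. Total counts were 2657291 to 5697165 per library. Named members were the paralogs with their parents, X-linked members, members past the threshold, the 5 with the highest mean CPM, those below the filter, and the 3 with the largest replicate difference per group. Of these, 1 gene is not reported here. Per list, up to 4 called genes with the lowest p were named. Symbols were matched to RefSeq (GRCr8): 73 members as current and 1 as an older name. Protein sequences and transcript lengths were not used here. The alternatives tried were scaling by RLE, by upper quartile or by total count, TMM without the members, the members' sum as library size, no ribosomal RNA genes, no filter, a filter of 5 CPM in 2 libraries, DESeq2 1.42.0, limma-voom, a replicate block, fits of the 4 libraries of a comparison alone, leaving out each library in turn, and leaving out USg 1 together with DSg 1.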

Additional observations from a re-analysis of the deposited data

How the results depend on the processing

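The sign of a summary value changed in these cases: the members' median for DSg vs USg and for Spc vs DSg with the members' sum as library size, and the median and the summed share for Spc vs USg without USg 2. Single genes were followed only where they passed in the comparison, with Rpl10 and Rpl39l added for DSg vs USg. None of those changed sign under an alternative. For DSg vs USg, 0 members were higher under every alternative, and the number lower was 18 with no filter, 10 by DESeq2, 6 with the replicate block, 37 without USg 1 and DSg 1, and 0 to 21 with 1 library left out. Of all genes, 5.10%, 4.44%, 3.57%, 23.8% and 0% to 8.42% were lower in the same fits, and none passed without DSg 1 or without DSg 2. The members' median was 0.12 with their own sum as library size, −1.22 without USg 1 and DSg 1, and −1.34 to −0.54 with 1 library left out. For Spc vs USg, the number higher was 0 with upper quartile scaling, total-count scaling or the members' sum as library size, 2 with the filter of 5 CPM, DESeq2 or limma-voom, 3 with the replicate block, 9 without USg 1 and DSg 1 (29.1% of all genes), and 0 to 6 with 1 library left out (9.70% to 18.1%). The number lower was 8 with no filter, 5 by DESeq2 and with the replicate block, 23 without USg 1 and DSg 1 (29.7% of all genes), and 2 to 8 with 1 library left out (6.85% to 16.7%), and the median ran from −0.47 to 0.037 with 1 library left out. For Spc vs DSg, the number higher was 0 with the members' sum as library size, 16 with no filter, 13 with the replicate block, 37 without USg 1 and DSg 1, 19 in the fit of 4 libraries, and 2 to 21 with 1 library left out, against 6.24%, 13.4%, 16.9%, 29.3%, 20.9% and 8.67% to 18.9% of all genes. The number lower was 4 with the members' sum as library size and 2 with no filter or DESeq2, against 29.9%, 7.87% and 13.0% of all genes. The median was −0.27 with the members' sum as library size, 0.89 without USg 1 and DSg 1, and 0.41 to 0.95 with 1 library left out. For Spc vs USg, 0 members higher with upper quartile, total-count and members' sum scaling stood against 16.4%, 15.9% and 13.4% of all genes. The 2 higher with the filter of 5 CPM, DESeq2 and limma-voom stood against 19.6%, 18.7% and 20.1%. The 3 with the replicate block stood against 19.7%. The 8 lower with no filter stood against 12.8%, and the 5 by DESeq2 and with the replicate block against 17.4% and 17.3%. The summed share differed by −1.07 to −0.254 (DSg minus USg), −0.536 to 0.284 (Spc minus USg) and 0.466 to 0.610 (Spc minus DSg) percentage points with 1 library left out. Using the members' sum as library size takes out their common shift by construction, and leaving out USg 1 and DSg 1 leaves 1 library in 2 groups, which are assumed to vary like Spc. The cause of the other differences was not tested.

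Upper quartile and total-count scaling moved the median of all genes to 0.15 and 0.16 for DSg vs USg and to −0.25 and −0.22 for Spc vs DSg, and the members' median relative to it stayed at −0.82 and −0.81, and at 0.66 and 0.65. The 2 replicate numbers do not mark a shared batch in the labels. Over the 62 members, the replicate differences of USg and DSg had r = 0.61 (0.25 over all genes), those of USg and Spc −0.29 (−0.27) and those of DSg and Spc 0.02 (0.01), across genes, which are not independent replicates. For single genes, 692 values kept their side of the threshold, 94 lost and 12 gained a call. With the members' sum as library size, all 8 calls of members that rose in Spc vs DSg were lost (edgeR adjusted p 0.136 to 0.792). Those of Sbds (0.171), Taf1b (0.528), Taf1d (0.186) and Eef1g (0.889) in that comparison were lost too. In Spc vs USg the calls of Rpl3 (0.0702), Rps24 (0.101), Gnb2l1 (0.0756) and Eif4ebp2 (0.0516) were lost, and in DSg vs USg that of Mycn (0.0782). The 12 members below the filter had at most 14 counts in any library, so little can be said of their levels. The cause of their low counts was not tested.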
